A study of Homo sapiens with 15 samples.

Results

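Cadherins and protocadherins were examined as a gene family in RNA sequencing data from HT1080, an established line of human fibrosarcoma cells. The family was taken as every gene of the deposited table named CDH with a number or named with PCDH at the start, after 11 pseudogenes, 5 antisense genes and 4 further gene rows were left out. This gave 85 of 60675 genes: 5 type I classical cadherins, 13 type II classical cadherins, 5 other cadherins, 9 non-clustered protocadherins, and 15, 16 and 22 genes of the PCDHA, PCDHB and PCDHG clusters. Per the labels, 3 samples came from wild-type cells after 2 days in 1 µM TMP195, an inhibitor of class IIa lysine deacetylases. The other samples were untreated cells whose own deacetylase gene carried a change: KDAC7 (gene HDAC7) with H709A in 4 samples, KDAC4 (gene HDAC4) with H803A in 4 samples, and KDAC4 with H976Y in 4 samples. The series calls its variants inactivated or enhanced, and its title names KDAC4 and KDAC7 as inactive. Neither word is tied to a single variant here, and whether H976Y lowers or raises enzyme activity was not tested. The labels do not say how many clones each variant line came from, or whether replicates are separate cultures, so p-values measure the spread between these samples. Untreated wild-type cells were not analysed here. Every comparison with the TMP195 samples therefore joins genotype and drug, which cannot be told apart. The deposited column of KDAC4 H803A replicate 4 holds gene lengths and not counts, which left 14 libraries, 3 of them KDAC4 H803A.

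Classical cadherins are calcium-dependent adhesion receptors that bind like molecules on the neighbouring cell and are tied to actin by catenins at their tails. Epithelial cells rely on CDH1 (E-cadherin), whereas fibroblasts and sarcoma cells typically use CDH2 (N-cadherin) and CDH11. The clustered protocadherins sit in 3 gene arrays on chromosome 5. In the PCDHA and PCDHG arrays each gene has its own promoter and a large variable exon that is spliced to constant exons shared by the whole array, and PCDHB genes lack such constant exons. Promoter choice in these arrays depends on CTCF, cohesin and DNA methylation, and most variable promoters carry a conserved element whose core is CGCT.

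Of the 85 genes, 66 had a promoter window in the RefSeq table used here (GRCh38.p14, 250 bases before to 50 bases after the start). The windows below are those of PCDHA4, the PCDHA gene with nearly all of that cluster's counts in the variant lines, and of its near-silent neighbour PCDHA5. Those of PCDHGC3 and PCDHGC4, at the end of the PCDHG array, come next, PCDHGC3 having a far higher mean level than PCDHGC4. PCDHA5 and PCDHGC4 were picked for this contrast after their values were seen. The windows of PCDH1 and CDH8, which were called between TMP195-treated cells and variant lines, follow. Capitals mark CGCT or its reverse complement AGCG. For CDH8 and PCDHGC4, the first of 2 listed windows is shown.
PCDHA4 (chr5:140806818-140807117, plus strand): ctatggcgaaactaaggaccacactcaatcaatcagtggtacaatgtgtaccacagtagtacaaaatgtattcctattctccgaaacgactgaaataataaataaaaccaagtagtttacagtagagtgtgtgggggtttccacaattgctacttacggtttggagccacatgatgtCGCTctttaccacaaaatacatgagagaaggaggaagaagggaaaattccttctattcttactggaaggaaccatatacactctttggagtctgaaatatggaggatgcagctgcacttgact
PCDHA5 (chr5:140821363-140821662, plus strand): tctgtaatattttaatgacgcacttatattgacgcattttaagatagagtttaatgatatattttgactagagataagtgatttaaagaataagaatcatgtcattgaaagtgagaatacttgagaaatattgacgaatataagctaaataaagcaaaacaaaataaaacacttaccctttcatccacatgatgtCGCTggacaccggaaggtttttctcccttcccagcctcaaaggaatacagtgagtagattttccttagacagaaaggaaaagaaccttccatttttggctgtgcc
PCDHGC3 (chr5:141475716-141476015, plus strand): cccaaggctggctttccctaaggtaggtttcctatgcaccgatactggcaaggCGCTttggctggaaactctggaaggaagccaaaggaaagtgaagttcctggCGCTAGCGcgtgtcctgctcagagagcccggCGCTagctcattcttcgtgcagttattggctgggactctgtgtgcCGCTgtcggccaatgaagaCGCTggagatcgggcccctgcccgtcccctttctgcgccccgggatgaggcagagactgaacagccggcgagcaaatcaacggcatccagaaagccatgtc
PCDHGC4 (chr5:141484780-141485079, plus strand): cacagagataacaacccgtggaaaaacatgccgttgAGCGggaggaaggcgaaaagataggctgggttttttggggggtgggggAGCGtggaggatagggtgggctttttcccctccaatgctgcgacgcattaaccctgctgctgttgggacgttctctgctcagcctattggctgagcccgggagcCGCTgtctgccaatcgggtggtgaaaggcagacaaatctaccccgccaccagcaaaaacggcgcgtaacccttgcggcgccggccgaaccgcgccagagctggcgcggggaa
PCDH1 (chr5:141869578-141869877, minus strand): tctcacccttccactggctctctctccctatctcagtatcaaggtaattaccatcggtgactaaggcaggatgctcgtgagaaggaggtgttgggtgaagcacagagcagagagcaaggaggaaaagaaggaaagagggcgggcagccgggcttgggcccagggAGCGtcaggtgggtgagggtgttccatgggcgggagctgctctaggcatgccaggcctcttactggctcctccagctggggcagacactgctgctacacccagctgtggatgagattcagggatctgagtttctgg
CDH8 (chr16:62036389-62036688, minus strand): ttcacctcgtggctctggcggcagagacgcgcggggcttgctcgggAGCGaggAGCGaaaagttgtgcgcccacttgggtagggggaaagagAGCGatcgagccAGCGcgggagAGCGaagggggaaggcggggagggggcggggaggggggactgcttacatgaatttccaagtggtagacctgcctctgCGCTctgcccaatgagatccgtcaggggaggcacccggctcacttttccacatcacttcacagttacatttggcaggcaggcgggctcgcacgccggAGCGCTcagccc

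The 4-letter motif CGCT, searched on both strands, was in 12 of 13 PCDHA windows, 14 of 14 PCDHB windows and 20 of 20 PCDHG windows, against 70% of all 35116 windows listed. It was also in 2 of 2 type I, 8 of 8 type II and 2 of 2 other cadherin windows, and in 6 of 7 windows of non-clustered protocadherins. The median number of matches was 1 for PCDHA and PCDHB, 3 for PCDHG, 3 to 5.5 for the unclustered subfamilies and 2 over all windows. The windows of PCDHA4 and PCDHA5 shared a run of 15 bases, ccacatgatgtCGCT. That run was also in the windows of PCDHA1, PCDHA2, PCDHA7 and PCDHA8, and in no other of the 35116 windows. The PCDHA4 and PCDHA5 windows thus hold the same run, while PCDHA4 averaged 7.01 CPM (defined below) and PCDHA5 0.193 CPM over all libraries. A match is a description of the letters and not a measured site.

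The libraries held 6151417 to 24297525 expected counts, so that 1 CPM (counts per 1e+06 of a library size scaled by TMM) stood for 4.86 to 23.9 counts. Of 8 mesenchymal markers, VIM was at 2690 to 5640 CPM and FN1, SPARC, CD44 and LGALS1 were at 168 CPM or more in every library, whereas THY1, S100A4 and NT5E reached at most 2.6 CPM. FN1 and LGALS1 were called lower in KDAC4 H803A, and FN1 in KDAC7 H709A, than in KDAC4 H976Y, and LGALS1 higher with TMP195 than in KDAC4 H803A. Epithelial markers summed to 3.03 to 18.2 CPM, with EPCAM at 0 to 0.0965 CPM and ESRP2 called higher with TMP195 than in KDAC4 H976Y. Of 6 blood markers PTPRC was at 0 in all libraries, but LCP1, at 33.8 to 260 CPM, was called higher in each other group than in KDAC4 H976Y. Neural markers summed to 102 to 299 CPM, mostly TUBB3 and NCAM1, with TUBB3 called lower in KDAC7 H709A and KDAC4 H803A than in KDAC4 H976Y and STMN2 at 0. Of the endothelial markers, the factor ERG was at 0 in all libraries, whereas TIE1 had 65.9 to 151 CPM and ROBO4 21.4 to 133 CPM. Summed endothelial markers had 157 to 166 CPM with TMP195, 141 to 298 CPM in KDAC7 H709A, 194 to 229 CPM in KDAC4 H803A and 95.6 to 128 CPM in KDAC4 H976Y, with ROBO4 of the 8 genes called higher in each other group than in KDAC4 H976Y. The part of these markers in the results below was not tested. Several libraries stood apart from their labels. The library labelled KDAC4 H803A replicate 1 was closest to KDAC7 H709A replicate 4 (median overdispersion 2 between them, where 1 would be pure counting error) and far from KDAC4 H803A replicates 2 and 3 (85.2 and 83). KDAC7 H709A replicate 1 lay nearest to KDAC4 H803A replicates 3 and 2 (8.4 and 9.71) and at 41.3 to 84.3 from its own group. KDAC7 H709A replicate 1 and KDAC4 H803A replicates 2 and 3 also favoured GC-rich genes over GC-poor ones by 1.27 to 1.48 on the log2 scale, where the other 11 libraries lay between -1.20 and 0.56. Mitochondrial ribosomal RNA made up 16.1% to 31.5% of each KDAC4 H976Y library, against at most 0.345% of any other, so that genotype and preparation of that group cannot be told apart. Results are therefore also given without KDAC4 H803A replicate 1 and KDAC7 H709A replicates 1 and 4, a choice made with results of these data known.

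**Figure D1:**
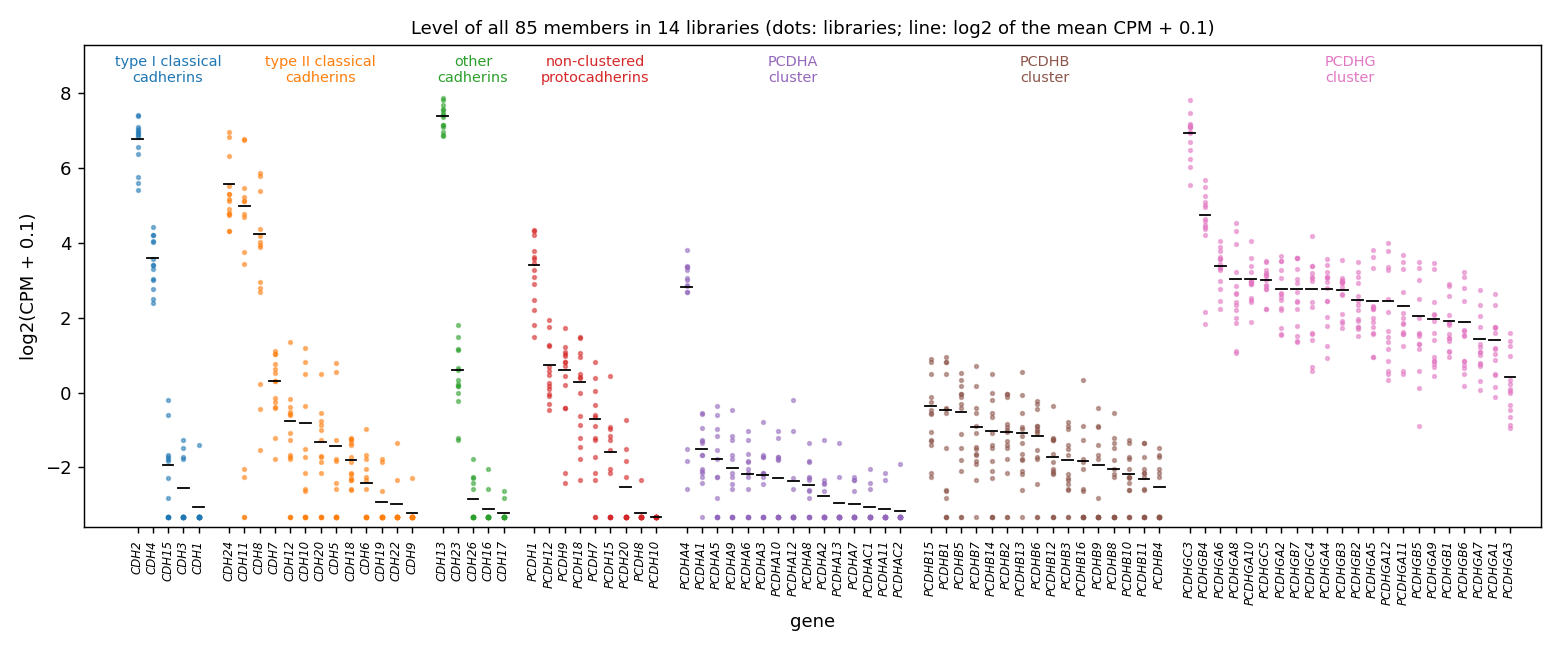
Level of each of the 85 genes as log2(CPM + 0.1), grouped by subfamily; each dot is 1 of 14 libraries and each line is the log2 of the mean CPM + 0.1. CDH2, CDH13, CDH24 and PCDHGC3 stand highest, every PCDHG gene is detected, and PCDHA4 stands above all other PCDHA genes.

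Of the 85 genes, 41 passed the filter on low counts: 2 type I, 5 type II and 2 other cadherins, 5 non-clustered protocadherins, 1 PCDHA, 4 PCDHB and 22 PCDHG genes. Per kilobase of the longest transcript, mean levels over all libraries were highest for PCDHGC3 (26.1 CPM per kb), CDH2 (25.3), CDH13 (20.7) and CDH24 (13.4), followed by PCDHGB4 (5.61) and CDH11 (4.63). Members were tested with edgeR's quasi-likelihood test and called at a Benjamini-Hochberg adjusted p under 0.05 over all 17780 genes tested. Against KDAC7 H709A, TMP195-treated wild-type cells had 0 members higher and 6 lower, or 14.6% of the 41 tested, where 6.29% of all genes were called (1.99% higher, 4.31% lower). Against KDAC4 H803A, TMP195 gave 1 higher and 4 lower (12.2%; all genes 5.34%, with 1.56% higher and 3.78% lower). Against KDAC4 H976Y, TMP195 gave 3 higher and 5 lower (19.5%; all genes 16.5%, with 7.96% higher and 8.55% lower). KDAC7 H709A against KDAC4 H976Y gave 3 higher and 0 lower (7.32%; all genes 12.5%, with 7.28% higher and 5.19% lower), and KDAC4 H803A against KDAC4 H976Y gave 6 higher and 0 lower (14.6%; all genes 15.1%, with 9.21% higher and 5.85% lower). The shares against KDAC4 H976Y were thus near or below those of all genes. Between KDAC7 H709A and KDAC4 H803A edgeR called 0 members and 0% of all genes; 1 member had an unadjusted p under 0.05 and DESeq2 called 1. The median log2 fold change of the tested members was -0.74, -1.18 and -0.13 for TMP195 against KDAC7 H709A, KDAC4 H803A and KDAC4 H976Y, beside -0.07, -0.11 and 0.03 over all genes. It was -0.34, 0.36 and 0.83 for KDAC7 H709A over KDAC4 H803A, for KDAC7 H709A over KDAC4 H976Y, and for KDAC4 H803A over KDAC4 H976Y, beside 0.02, 0.09 and 0.09. Of the 41 tested, 22 were PCDHG genes, so these medians lean on that cluster. For TMP195 against KDAC4 H803A the median was -1.23 for PCDHG, -1.95 for PCDHB and -1.04 for type II cadherins. It was 1.07 for non-clustered protocadherins, 0.23 for type I and 0.01 for other cadherins, and -5.64 for the 1 PCDHA gene. Upper-quartile scaling left the counts as they were but changed the split to 2 higher and 4 lower for TMP195 against KDAC7 H709A, 2 and 3 against KDAC4 H803A, and 5 and 3 against KDAC4 H976Y. Comparisons with a group in common share its samples and are not independent.

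**Figure D2:**
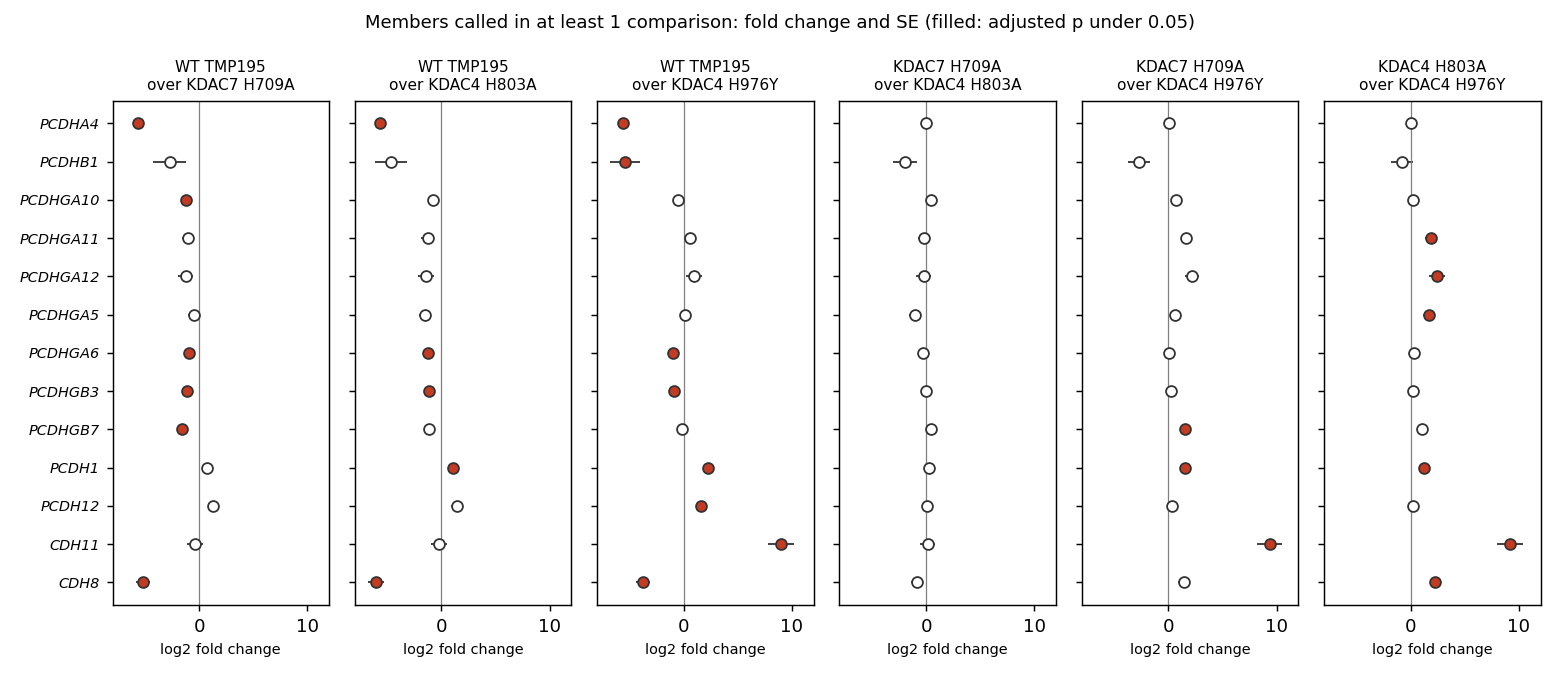
Log2 fold changes with standard errors of the 13 members called in at least 1 of 6 comparisons (1 panel each, first-named group over the second); filled points have an adjusted p under 0.05. PCDHA4 and CDH8 are lower in TMP195-treated cells than in each variant line, and CDH11 is higher in every group than in KDAC4 H976Y.

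Without the 3 libraries, 34 members were called for TMP195 against KDAC4 H803A (47.9% of all genes called), 20 against KDAC7 H709A (45.7%) and 19 against KDAC4 H976Y (53.9%). In the same fit 27 members differed between KDAC7 H709A and KDAC4 H803A (60.2% of all genes called), 16 between KDAC7 H709A and KDAC4 H976Y (31.8%), and 28 between KDAC4 H803A and KDAC4 H976Y (64.5%). With 43 members tested, the counts between variant lines and for TMP195 against KDAC7 H709A were near the share of all genes. The count for TMP195 against KDAC4 H976Y was below that share, and the count against KDAC4 H803A was above it. That fit rested on 2 libraries each for KDAC7 H709A and KDAC4 H803A. The KDAC4 H803A libraries kept, replicates 2 and 3, were both GC-favouring (1.48 and 1.41 on the log2 scale). All other libraries of the fit lay between -1.02 and 0.56. Genotype and GC tilt of KDAC4 H803A therefore cannot be told apart there, which holds for every result of that fit against KDAC4 H803A given below.

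Among the type I classical cadherins, CDH2 was the abundant one. It had 114, 121 and 94.6 CPM in TMP195-treated cells, and 48.6, 128, 137 and 170 CPM in KDAC7 H709A. KDAC4 H803A libraries held 167, 54.6 and 42.7 CPM, and KDAC4 H976Y libraries held 117, 124, 133 and 83.6 CPM. All groups overlapped, and no comparison passed the test (adjusted p at least 0.568). The spread within KDAC7 H709A and KDAC4 H803A followed the libraries that stood apart: the lowest 3 values were those of the GC-favouring libraries. Without the 3 libraries, CDH2 in KDAC4 H803A fell below its level in KDAC4 H976Y (log2 fold change, or LFC, -1.26 ± 0.19, SE, edgeR adjusted p = 5.91e-05), from 2 KDAC4 H803A libraries, both GC-favouring. TMP195-treated cells and KDAC7 H709A also had more CDH2 than KDAC4 H803A in that fit (1.18 ± 0.19, adjusted p = 0.000298, and 1.46 ± 0.21, 5.27e-05).

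CDH4 (R-cadherin), a neural and retinal classical cadherin, was lower in level than CDH2. It had 16.6, 18.4 and 16.1 CPM in TMP195-treated cells, 9.85, 11.8, 10.5 and 5.58 CPM in KDAC7 H709A, 6.71, 18.4 and 21.2 CPM in KDAC4 H803A, and 8.16, 10.5, 7.9 and 5.15 CPM in KDAC4 H976Y. The TMP195 values lay above all those of KDAC7 H709A and KDAC4 H976Y without passing the test (adjusted p = 0.181 and 0.058). Both passed without the 3 libraries (0.61 ± 0.21, edgeR adjusted p = 0.0304, and 1.06 ± 0.18, 0.000288), and the second also with upper-quartile scaling. CDH1, the epithelial cadherin, had 2 counts in KDAC4 H976Y replicate 1 and 0 in the other 13 libraries, and CDH3 (P-cadherin) stayed at or below 0.319 CPM.

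CDH11, the mesenchymal type II cadherin (ENSG00000140937, chromosome 16), was nearly absent from 1 group. It had 44.2, 34.8 and 34.8 CPM in TMP195-treated cells, 37.1, 25.9, 27.1 and 108 CPM in KDAC7 H709A, and 110, 13.4 and 10.7 CPM in KDAC4 H803A. In the 4 KDAC4 H976Y libraries it had 0.141, 0, 0.108 and 0 CPM, or 2 counts in all. No library of the other groups came near those values. The pooled ratio over KDAC4 H976Y was 581 for TMP195 (95% counting interval 161 to 4800), 913 for KDAC7 H709A (253 to 7540) and 854 for KDAC4 H803A (236 to 7060). EdgeR's adjusted p was 0.00036, 0.000344 and 0.000524. The 913 tested genes of chromosome 16 had median LFCs of 0.28, 0.14 and 0.43 in these comparisons. These calls held in all 22 alternative fits, and in bulk RNA fewer expressing cells and less RNA per cell cannot be told apart. The highest CDH11 values were those of KDAC7 H709A replicate 4 and the library labelled KDAC4 H803A replicate 1. Without the 3 libraries, CDH11 was higher in TMP195-treated cells than in KDAC4 H803A (1.66 ± 0.19, adjusted p = 1.82e-05) and than in KDAC7 H709A (0.51 ± 0.18, adjusted p = 0.0299). With all libraries the same log2 fold changes were -0.24 ± 0.75 and -0.38 ± 0.71.

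CDH8, a type II cadherin known from neural circuits (ENSG00000150394, chromosome 16), was nearly lost from the TMP195-treated cells. It had 0.635, 0.244 and 1.07 CPM there, against 41.7, 20.5, 14.7 and 18.2 CPM in KDAC7 H709A, 16.1, 55.6 and 58.4 CPM in KDAC4 H803A, and 7.6, 6.38, 6.82 and 15.2 CPM in KDAC4 H976Y. The TMP195 values lay below every other library. The log2 fold change for TMP195 was -5.18 ± 0.67 against KDAC7 H709A (edgeR adjusted p = 0.000374), -6.05 ± 0.70 against KDAC4 H803A (0.000158) and -3.77 ± 0.64 against KDAC4 H976Y (0.00189). Without the 3 libraries the values were -4.76, -6.45 and -3.74. KDAC4 H803A also had more CDH8 than KDAC4 H976Y (2.28 ± 0.52, adjusted p = 0.0125), a call lost with the replicate number as a block and without KDAC4 H803A replicate 3 (adjusted p up to 0.0566 over all alternatives). The 3 highest CDH8 values were those of the GC-favouring libraries. KDAC4 H803A replicate 1 (16.1 CPM) was next to KDAC4 H976Y replicate 4 (15.2 CPM). The part of library preparation in this call was not tested.

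What these CDH8 counts stand for is limited. In the length column deposited for KDAC4 H803A replicate 4, CDH8 had an effective length of 290.76 bases, within 0.62 bases of the value expected for a non-coding transcript of 539 bases (GENCODE v29, chromosome 16, 61901392 to 61918714). That length is far from the value of a full coding mRNA, and which transcripts the counts of the 14 libraries came from was not tested. The antisense gene AC012174.1, which overlaps CDH8, had 0 counts in every library.

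CDH24, a type II cadherin expressed in many tissues, was the highest of its type and was chosen here after its values were seen. It had 39.5, 39.7 and 45.7 CPM in TMP195-treated cells, 80.4, 34.9, 27.2 and 19.7 CPM in KDAC7 H709A, 20, 113 and 125 CPM in KDAC4 H803A, and 26.7, 29.9, 27.7 and 36.3 CPM in KDAC4 H976Y. Its 3 highest values were in the GC-favouring libraries, and 64.2% of its longest transcript is G or C; the part of library preparation in this was not tested. CDH5, the endothelial VE-cadherin, had 3, 3 and 1 counts in TMP195-treated cells, 0, 1, 0 and 0 in KDAC7 H709A, 5, 14 and 15 in KDAC4 H803A and 0 in all KDAC4 H976Y libraries, and failed the filter. CDH6 stayed at or below 0.412 CPM. The other 8 type II genes had mean levels of at most 1.15 CPM.

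CDH13 (T-cadherin), which lacks the usual tail and is anchored to the membrane by a lipid, had the highest mean CPM of all members, 167 over the 14 libraries. It had 233, 224 and 206 CPM in TMP195-treated cells, above 125, 136, 142 and 190 CPM in KDAC7 H709A, 187, 119 and 116 CPM in KDAC4 H803A, and 170, 164, 179 and 143 CPM in KDAC4 H976Y. TMP195 overlapped none of the variant groups, but the differences of 0.58, 0.65 and 0.43 (log2) did not pass the test (edgeR adjusted p = 0.11, 0.113 and 0.155). All 3 passed with upper-quartile scaling. Without the 3 libraries they were 0.66 ± 0.13, 0.92 ± 0.13 and 0.42 ± 0.11, with adjusted p of 0.00141, 0.000123 and 0.00504.

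**Figure D3:**
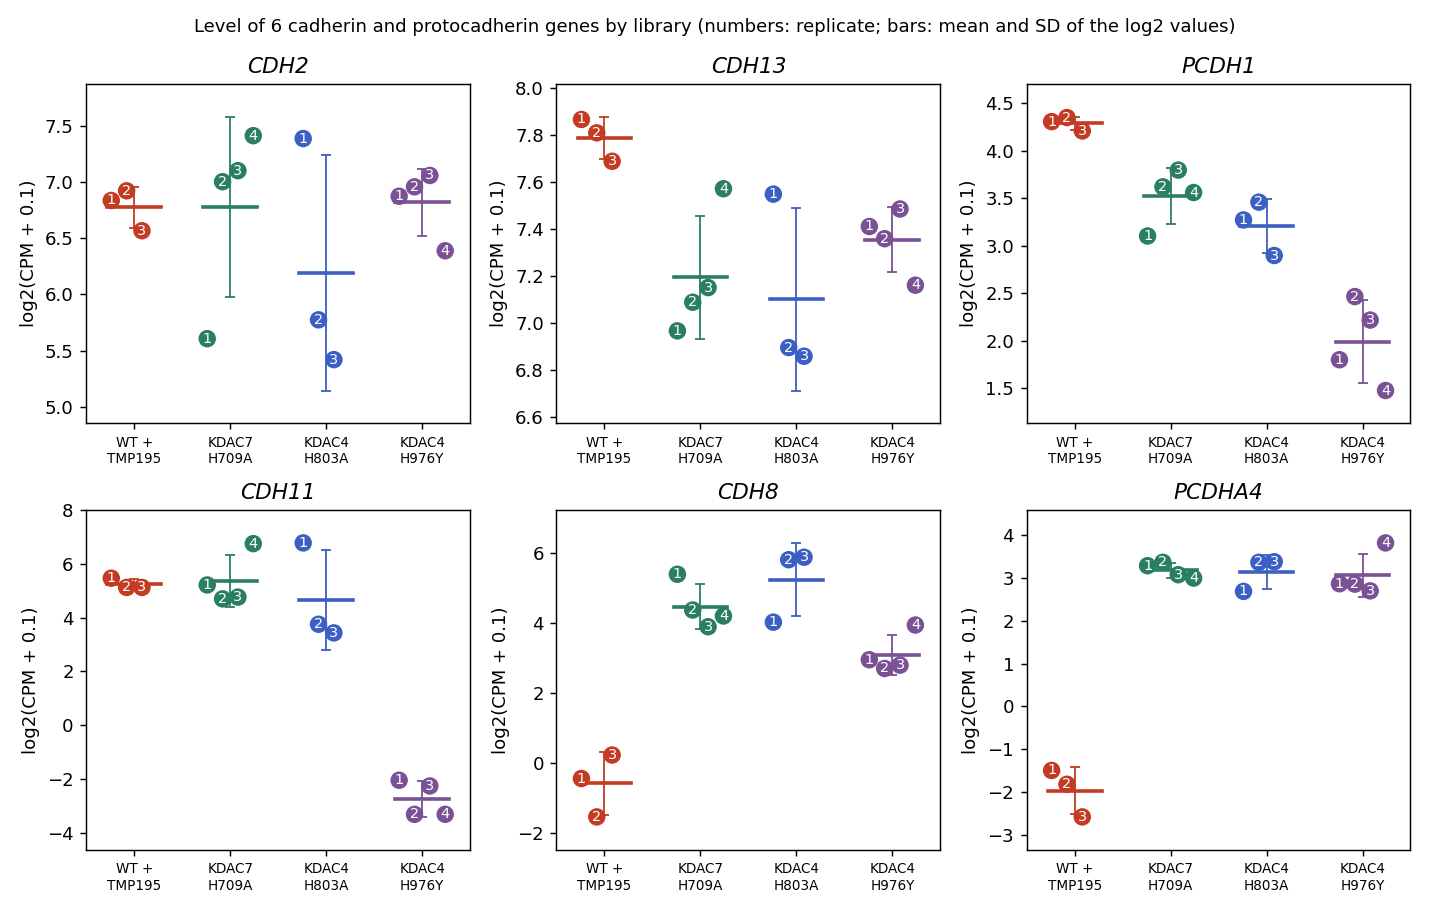
Level of 6 members by library as log2(CPM + 0.1), by group; circled numbers are replicates, bars give the mean and SD of the log2 values. CDH11 drops out in KDAC4 H976Y, CDH8 and PCDHA4 in TMP195-treated cells, and PCDH1 is highest with TMP195 and lowest in KDAC4 H976Y.

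Of the non-clustered protocadherins, PCDH1, an adhesion protein of airway epithelium that is also an entry receptor for New World hantaviruses, ordered the groups most clearly. It had 19.7, 20.3 and 18.4 CPM in TMP195-treated cells, 8.49, 12.2, 13.8 and 11.7 CPM in KDAC7 H709A, 9.56, 10.9 and 7.35 CPM in KDAC4 H803A, and 3.38, 5.42, 4.55 and 2.68 CPM in KDAC4 H976Y. The middle groups overlapped each other, and TMP195 above and KDAC4 H976Y below overlapped neither. Against KDAC4 H976Y, PCDH1 was 4.79-fold higher with TMP195 (log2 2.26 ± 0.26, edgeR adjusted p = 0.00013), 2.85-fold higher in KDAC7 H709A (1.51 ± 0.25, 0.00181) and 2.29-fold higher in KDAC4 H803A (1.20 ± 0.26, 0.0102). With TMP195 it was 2.09-fold higher than in KDAC4 H803A (1.07 ± 0.28, 0.0391). The difference from KDAC7 H709A (0.75 ± 0.25) did not pass (adjusted p = 0.0966; 0.0488 without the 3 libraries), and it passed with upper-quartile scaling. The calls of TMP195 and KDAC7 H709A against KDAC4 H976Y held in all 22 alternatives. Those involving KDAC4 H803A were lost when GC content and length were adjusted for (adjusted p = 0.132 for TMP195 against it and 0.141 for it against KDAC4 H976Y), and the call of TMP195 against KDAC4 H803A was lost in 14 of 22.

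PCDH12, an endothelial and trophoblast protocadherin, had 3.3, 3.72 and 2.27 CPM in TMP195-treated cells and 0.704, 1.28, 0.974 and 1.03 CPM in KDAC4 H976Y. It was higher with TMP195 (log2 1.62 ± 0.46, edgeR adjusted p = 0.0307), a call lost in 9 of 22 alternatives. It overlaps RNF14 on the opposite strand, at 18.8 to 55 CPM, and the strand setting of the counting is not given in the sources used here, so its counts are uncertain.

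The other members of this group showed no call with all libraries. PCDH7, an adhesion protein also studied in cancer, had 1.21, 1.65 and 0.936 CPM with TMP195 and 0 to 0.694 CPM in all variant libraries, without passing the test (edgeR adjusted p of 0.183, 0.185 and 0.256 against KDAC7 H709A, KDAC4 H803A and KDAC4 H976Y). PCDH18 ranged from 0.267 to 0.55 CPM with TMP195 and from 1.24 to 2.66 CPM in KDAC4 H976Y (log2 -2.18 ± 0.78, adjusted p = 0.0735). PCDH9, a protocadherin of neurons, had 2.03, 0.0868, 0.125 and 2.22 CPM in KDAC7 H709A, with replicates 2 and 3 far below replicates 1 and 4. The fit without the 3 libraries called PCDH7 higher with TMP195 than in KDAC4 H803A (2.56 ± 0.69, adjusted p = 0.00785) and KDAC4 H976Y (1.56 ± 0.50, 0.0175). It called PCDH18 lower with TMP195 than in KDAC7 H709A (-2.21 ± 0.50, 0.00304) and KDAC4 H976Y (-2.20 ± 0.46, 0.0013). PCDH9 was called higher with TMP195 than in KDAC7 H709A there (3.81 ± 0.70, 0.000715), from KDAC7 H709A replicates 2 and 3 alone. Among the variant lines the same fit called PCDH18 lower in KDAC4 H803A than in either other line, and PCDH9 lower in KDAC7 H709A. PCDH10 had 0 counts in every library.

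The PCDHA cluster was carried by 1 gene in the variant lines, and that gene was almost silent in TMP195-treated cells. PCDHA4 (ENSG00000204967, chromosome 5, 140806929 to 141012344) had 4, 3 and 1 counts, or 0.254, 0.183 and 0.0669 CPM, with TMP195. It had 9.65, 10.2, 8.33 and 7.88 CPM in KDAC7 H709A, 6.33, 10.2 and 10.3 CPM in KDAC4 H803A, and 7.18, 7.13, 6.39 and 14 CPM in KDAC4 H976Y. The variant groups overlapped one another, and the TMP195 values lay far below all of them. The log2 fold change was -5.65 ± 0.47 against KDAC7 H709A (edgeR adjusted p = 1.18e-05), -5.64 ± 0.47 against KDAC4 H803A (1.53e-05) and -5.59 ± 0.47 against KDAC4 H976Y (8.2e-06). All 3 calls held in all 22 alternatives, and without the 3 libraries the values were -5.69, -5.82 and -5.55. The variant lines did not differ in PCDHA4 (log2 differences of 0.02 to 0.07, adjusted p at least 0.927).

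PCDHA4 took 18.2%, 14.3% and 7.69% of the PCDHA counts with TMP195 and 74.5% to 94.4% in the variant libraries. PCDHA1, next in mean level, had 0.127 to 0.305 CPM with TMP195 and 0 to 0.581 CPM in the variant libraries. PCDHA5, whose window shares the 15-base run with PCDHA4, had 0, 0.244 and 0 CPM with TMP195 and 0 to 0.676 CPM elsewhere. The 14 PCDHA genes other than PCDHA4 all failed the filter. Summed over the 15 genes, the cluster had 1.4, 1.28 and 0.869 CPM with TMP195, against 8.93 to 11.5 CPM in KDAC7 H709A, 7.03 to 13.7 CPM in KDAC4 H803A and 7.04 to 15.4 CPM in KDAC4 H976Y. The sum was lower with TMP195 by the same test, with log2 fold changes of -3.11 ± 0.37, -3.20 ± 0.38 and -2.99 ± 0.37 (adjusted p = 0.000182, 0.00019 and 0.000203).

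The kind of PCDHA4 RNA counted is likewise limited. In the deposited length column, PCDHA4 had exactly the value of an unspliced transcript of 10557 bases and 1 exon (chromosome 5, 140807037 to 140817593), and not a transcript joined to the constant exons. Which transcripts the counts of the 14 libraries came from was not tested. The antisense gene AC005609.5, which spans this transcript on the opposite strand, stayed at or below 0.211 CPM.

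The PCDHB cluster was low throughout. Its 16 genes summed to 0.889, 2.14 and 2.34 CPM in TMP195-treated cells, 2.7, 4.51, 4.19 and 5.03 CPM in KDAC7 H709A, 4.12, 10.9 and 8.44 CPM in KDAC4 H803A, and 7.04, 5.85, 5.74 and 6.18 CPM in KDAC4 H976Y. The TMP195 sums lay below those of every variant library. The sum was lower with TMP195 than in KDAC4 H803A (log2 -2.12 ± 0.43, edgeR adjusted p = 0.0101) and in KDAC4 H976Y (-1.79 ± 0.41, 0.0108). Against KDAC7 H709A it was -1.20 ± 0.40 (adjusted p = 0.0928). Both calls were lost without TMP195 replicate 1.

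Within the cluster, 4 genes passed the filter and 1 was called with all libraries. PCDHB1, the gene nearest the PCDHA array, had 0, 1 and 0 counts with TMP195, 6, 3, 0 and 1 in KDAC7 H709A, 1, 17 and 6 in KDAC4 H803A, and 13, 6, 12 and 8 in KDAC4 H976Y. TMP195 was lower than KDAC4 H976Y by a pooled ratio of 60 (95% counting interval 10.2 to 2430, edgeR adjusted p = 0.0207), which was lost in 5 of 22 alternatives. PCDHB15, highest in mean level, had 0.127, 0.305 and 0.736 CPM with TMP195, 0.386 to 1.3 CPM in KDAC7 H709A, 0.57 to 1.75 CPM in KDAC4 H803A and 0.108 to 0.618 CPM in KDAC4 H976Y, with no call.

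**Figure D4:**
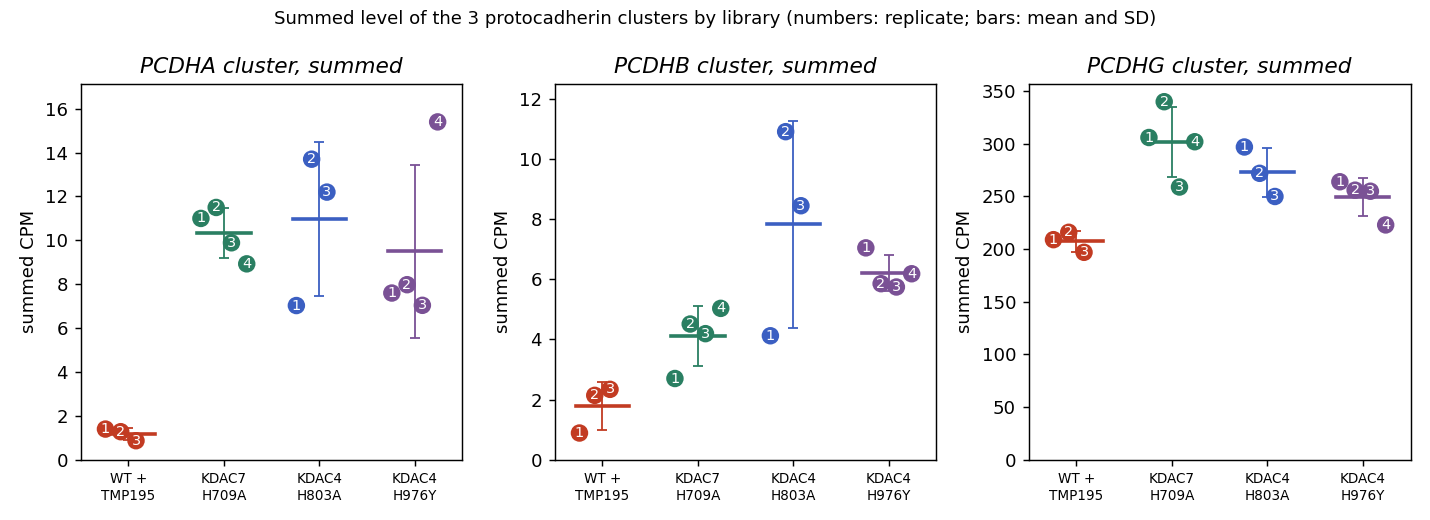
Summed CPM of the PCDHA, PCDHB and PCDHG clusters by library and group; circled numbers are replicates, bars give the mean and SD. In each cluster the 3 TMP195 libraries are below all libraries of the variant lines, by far the most in PCDHA.

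The PCDHG cluster was the most active, with all 22 genes past the filter. Its sum was 209, 216 and 197 CPM with TMP195, 259 to 340 CPM in KDAC7 H709A, 250 to 297 CPM in KDAC4 H803A and 223 to 264 CPM in KDAC4 H976Y. The TMP195 sums were the lowest 3, but the log2 differences of -0.54 ± 0.15, -0.40 ± 0.16 and -0.27 ± 0.15 did not pass the test (edgeR adjusted p = 0.0507, 0.195 and 0.229). The difference from KDAC7 H709A passed without the 3 libraries (adjusted p = 0.00817). Because PCDHG transcripts share their constant exons, RSEM's split of reads among these genes is uncertain, and single-gene values carry that limit.

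PCDHGC3, a C-type gene that is expressed broadly and not by stochastic choice, was the main PCDHG gene. It had 122, 124 and 103 CPM with TMP195, 65.2, 227, 178 and 144 CPM in KDAC7 H709A, 136, 75 and 46.7 CPM in KDAC4 H803A, and 138, 143, 137 and 88.8 CPM in KDAC4 H976Y, with no call. PCDHGC3 took 18.7% to 27.6% of the cluster's counts in the 3 GC-favouring libraries and 39.8% to 68.6% in the other 11; the part of GC content was not tested. When the 3 libraries that stand apart were left out, KDAC7 H709A had more PCDHGC3 than KDAC4 H803A (1.75 ± 0.25, edgeR adjusted p = 5.22e-05). PCDHGC4, its neighbour, had 7.81, 8.43 and 4.75 CPM with TMP195 and 1.38 to 18 CPM in the variant libraries.

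PCDHGB4 was next, and it split the KDAC7 H709A group. PCDHGB4 had 20.8, 18.3 and 22.3 CPM with TMP195, 31.1, 3.47, 4.38 and 51 CPM in KDAC7 H709A, 45.1, 24.9 and 21.4 CPM in KDAC4 H803A, and 33.8, 38.3, 32.5 and 23.7 CPM in KDAC4 H976Y. KDAC7 H709A replicates 2 and 3 were alone under 18 CPM, and PCDHGB4 took 1.02% and 1.69% of their PCDHG counts against 8.44% to 16.9% in the other 12 libraries. No comparison was called with all libraries. Without replicates 1 and 4 and KDAC4 H803A replicate 1, PCDHGB4 was higher with TMP195 than in KDAC7 H709A (log2 2.36 ± 0.22, edgeR adjusted p = 4.06e-06). The same fit had it lower in KDAC7 H709A than in KDAC4 H803A (-2.53 ± 0.24, 2.24e-06) and KDAC4 H976Y (-3.02 ± 0.22, 3.67e-07).

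**Figure D5:**
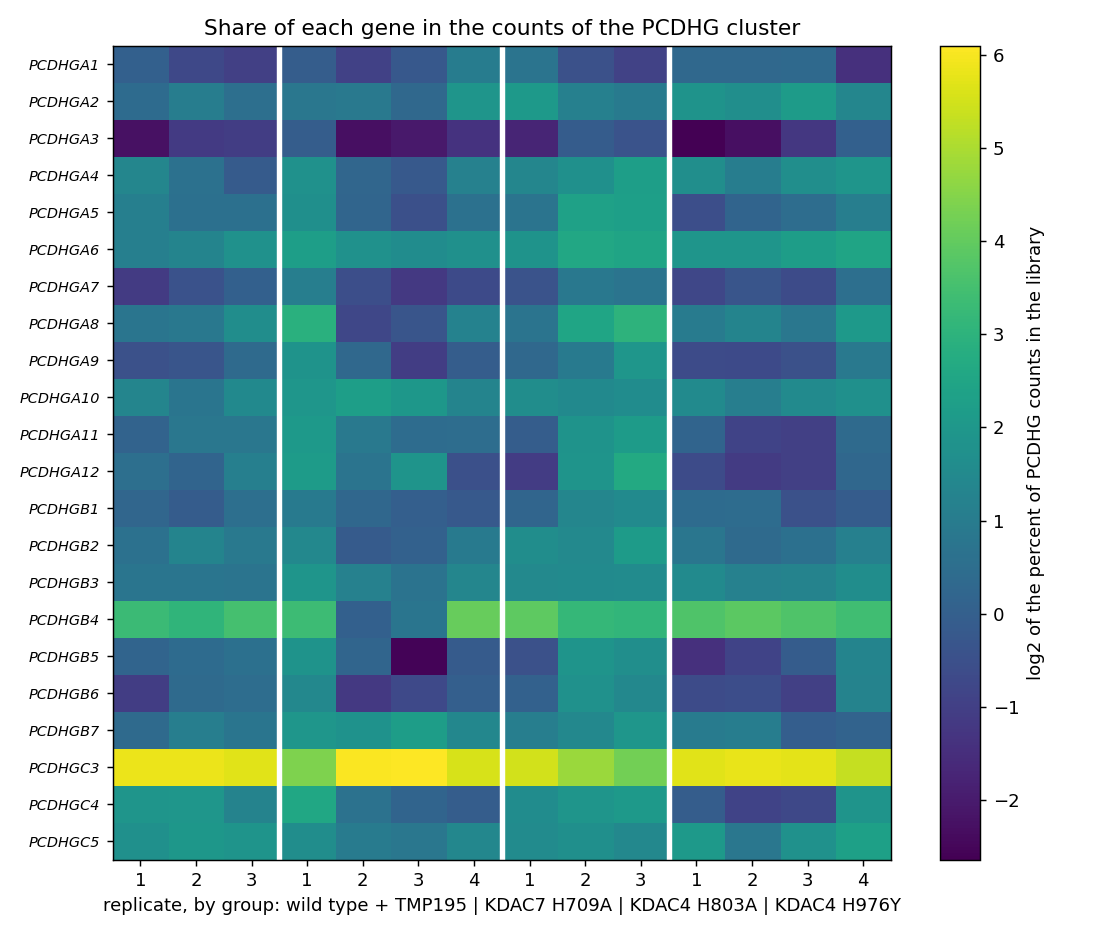
Share of each of the 22 PCDHG genes in the PCDHG counts of a library, as the log2 of the percent; columns are replicates by group. PCDHGC3 leads in every library, and PCDHGB4 is second except in KDAC7 H709A replicates 2 and 3.

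In the edgeR fit of all libraries, the PCDHG genes called in a comparison with TMP195 were PCDHGA6, PCDHGA10, PCDHGB3 and PCDHGB7, each lower with TMP195. These are of the A and B types, as are most PCDHG genes. Without the 3 libraries, PCDHGB4 was called higher than in KDAC7 H709A, as given above. That fit also called PCDHGC3 higher with TMP195 than in KDAC4 H803A (log2 0.94 ± 0.23, edgeR adjusted p = 0.00442) and lower than in KDAC7 H709A (-0.81 ± 0.22, 0.00858). PCDHGA12 was called higher there than in KDAC4 H976Y (1.01 ± 0.35, 0.025). Other calls of named PCDHG genes with TMP195 in that fit were lower. PCDHGA6 had 4.64, 5.37 and 6.75 CPM with TMP195, and 7.82 to 14.7 CPM in KDAC7 H709A, 10.8 to 16.6 CPM in KDAC4 H803A and 9.57 to 12.2 CPM in KDAC4 H976Y. PCDHGB3 had 3.56, 3.66 and 3.21 CPM with TMP195, and 4.19 to 11.5 CPM, 7.46 to 8.3 CPM and 5.96 to 7.74 CPM in KDAC7 H709A, KDAC4 H803A and KDAC4 H976Y. Neither gene overlapped between TMP195 and any variant group. EdgeR called PCDHGA6 lower with TMP195 than in KDAC7 H709A (log2 -0.98 ± 0.26, adjusted p = 0.0392), KDAC4 H803A (-1.29 ± 0.27, 0.0134) and KDAC4 H976Y (-0.96 ± 0.26, 0.0236). PCDHGB3 was called lower in the same 3 comparisons (-1.16 ± 0.30, -1.18 ± 0.31 and -0.94 ± 0.30, adjusted p = 0.0367, 0.0448 and 0.0474). Each of these 6 calls was lost in 6 to 14 of 22 alternatives, and none without the 3 libraries.

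PCDHGB7 and PCDHGA10 were called in comparisons with KDAC7 H709A. PCDHGB7 had 12, 12, 12.1 and 8.05 CPM in KDAC7 H709A and 5.21, 5.32, 2.49 and 2.47 CPM in KDAC4 H976Y (log2 1.50 ± 0.32, edgeR adjusted p = 0.00776, held in all 22 alternatives). With TMP195 it had 2.73, 4.58 and 3.34 CPM and was lower than in KDAC7 H709A (-1.63 ± 0.35, 0.0138). PCDHGA10 had 5.27, 3.6 and 5.62 CPM with TMP195 and 12, 16.4, 10.3 and 7.38 CPM in KDAC7 H709A (-1.25 ± 0.29, 0.0212). The groups compared did not overlap for either gene. The PCDHGB7 call with TMP195 was lost in 2 of 22 alternatives, without TMP195 replicate 1 or 3 (adjusted p up to 0.0897). The PCDHGA10 call was lost in 6 of 22, among them without TMP195 replicate 1, 2 or 3 and without KDAC7 H709A replicate 2 (adjusted p up to 0.129).

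PCDHGA5, PCDHGA11 and PCDHGA12 were called between KDAC4 H803A and KDAC4 H976Y, higher in KDAC4 H803A. PCDHGA5 had 4.88, 14 and 12.3 CPM in KDAC4 H803A and 1.83, 2.87, 3.57 and 4.74 CPM in KDAC4 H976Y (log2 1.68 ± 0.52, edgeR adjusted p = 0.0463). PCDHGA11 had 2.85, 9.69 and 11.1 CPM against 2.96, 1.38, 1.3 and 2.88 CPM in those groups (1.90 ± 0.55, 0.0358). PCDHGA12 had 1.39, 10.1 and 15.8 CPM against 1.69, 1.17, 1.3 and 2.68 CPM (2.43 ± 0.72, 0.0384). The library labelled KDAC4 H803A replicate 1 lay within or next to the KDAC4 H976Y range for all 3 genes, and the calls were lost in 10 to 15 of 22 alternatives. The high values came from the GC-favouring replicates 2 and 3, and KDAC7 H709A replicate 1 was likewise high (9.94, 12.8 and 13.7 CPM). Adjusted for GC content and length, all 3 calls held (edgeR adjusted p = 0.041, 0.0271 and 0.0385). All 3 were lost when the replicate block was added to that adjustment. The part of library preparation in these calls was not tested.

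Genes that act with cadherins were read from lists chosen with results of these data known. Catenins and plakins at cadherin tails had 14 of 18 genes tested. Of these, 0 rose and 1 fell with TMP195 against KDAC7 H709A, likewise 0 and 1 against KDAC4 H803A, and 3 rose and 1 fell against KDAC4 H976Y. KDAC7 H709A and KDAC4 H803A each had 4 higher and 0 lower than KDAC4 H976Y, where 7.28% and 9.21% of all genes were called higher. The shares of all genes given above for each comparison apply to the other lists too. The median log2 fold changes of the list, in the same order, were -0.30, -0.17, 0.26, 0.67 and 0.41, beside -0.07, -0.11, 0.03, 0.09 and 0.09 over all genes. DSP (desmoplakin), which ties desmosomes to intermediate filaments, was called in 5 of 6 comparisons. It had 22.9, 21.6 and 19.2 CPM with TMP195, 37.1 to 70 CPM in KDAC7 H709A, 52.7 to 63.4 CPM in KDAC4 H803A and 0.824 to 1.38 CPM in KDAC4 H976Y, and its ranges were separate except between KDAC7 H709A and KDAC4 H803A. EdgeR called DSP lower with TMP195 than in KDAC7 H709A (log2 -1.34 ± 0.22, adjusted p = 0.00213) and KDAC4 H803A (-1.48 ± 0.23, 0.00157), and higher than in KDAC4 H976Y (4.19 ± 0.25, 1.93e-06). JUP (plakoglobin) ran the other way, with 1.14 to 1.4 CPM with TMP195 and 18.9 to 34 CPM in KDAC4 H976Y (-4.49 ± 1.12, 0.0165). The adherens-junction catenins CTNNA1, CTNNB1 and CTNND1 were expressed in all libraries and were not called.

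Desmosomal and atypical cadherins had 18 of 25 genes tested, with 1 higher and 0 lower for TMP195 against KDAC7 H709A, 0 and 1 against KDAC4 H803A, and 2 and 5 against KDAC4 H976Y. KDAC7 H709A had 1 higher and 4 lower, and KDAC4 H803A 2 and 2, than KDAC4 H976Y. The list's medians were -0.09, -0.35, -0.10, -0.38 and -0.73, in the order given for the catenins. CELSR2, a planar polarity cadherin, was higher than in KDAC4 H976Y (21.2 to 22 CPM) in TMP195-treated cells (31.3 to 37.6 CPM), KDAC7 H709A (34.2 to 53.5 CPM) and KDAC4 H803A (36.2 to 56.8 CPM). FAT3 was lower than in KDAC4 H976Y (15.6 to 18.7 CPM) in the same groups, at 2.07 to 3.11, 3.51 to 10.6 and 4.26 to 9.12 CPM.

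Of 15 transcription factors of the cadherin switch, 11 were tested. TWIST2 was higher in KDAC7 H709A (12.7 to 64.7 CPM) and in KDAC4 H803A (12.9 to 27.4 CPM) than in KDAC4 H976Y (6.39 to 9.25 CPM), by log2 2.44 ± 0.45 and 1.52 ± 0.46 (edgeR adjusted p = 0.00337 and 0.0419), and FOXC2 was higher with TMP195 than in KDAC4 H976Y (1.07 ± 0.28, 0.0196). No factor was called in the comparisons of TMP195 with KDAC7 H709A or KDAC4 H803A, and the list's medians were -0.34, -0.22, -0.04, 0.41 and 0.27. Of 9 sheddases and gamma-secretase subunits, APH1A and PSENEN were lower in KDAC7 H709A and in KDAC4 H803A than in KDAC4 H976Y, and 0 were called for TMP195 (medians 0.17, 0.33, -0.21, -0.11 and -0.47).

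Of 18 regulators of the protocadherin clusters, 17 were tested. With TMP195 the cohesin subunit SMC3 was lower than in KDAC7 H709A (50.6 to 53.7 CPM against 76.8 to 157 CPM; log2 -1.11 ± 0.30, edgeR adjusted p = 0.0439) and than in KDAC4 H976Y (98.7 to 126 CPM; -1.14 ± 0.30, 0.0215). STAG1 and LRIF1 were also lower with TMP195 than in KDAC4 H976Y, and EHMT1, a histone methyltransferase, was called between KDAC4 H803A (68.3 to 168 CPM) and KDAC4 H976Y (41.4 to 51.7 CPM; 1.45 ± 0.34, 0.0147). CTCF, the insulator protein of these promoters, was not called in any comparison. Its TMP195 values (43.9 to 48.8 CPM) nevertheless lay below those of KDAC7 H709A (55.5 to 89.8 CPM), KDAC4 H803A (49.1 to 86.6 CPM) and KDAC4 H976Y (55 to 84.4 CPM). Medians of the list were -0.17, -0.36, -0.40, 0.07 and -0.04. Of 13 nectins and related adhesion molecules, 9 were tested and 1 was called: NECTIN2 had 124 to 148 CPM with TMP195, above 70 to 88.1 CPM in KDAC7 H709A, 52.5 to 83.3 CPM in KDAC4 H803A and 58.9 to 76.8 CPM in KDAC4 H976Y (edgeR adjusted p = 0.0208, 0.0131 and 0.00489; list medians 0.05, -0.05, 0.18, -0.20 and -0.53).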

How the data were processed

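Ribosomal-RNA-depleted total RNA of HT1080 cells was sequenced in paired ends, per the labels' protocols. Expected counts for every gene came in 1 table that the authors deposited, and Trimmomatic 0.39, Bowtie2 2.4.5, RSEM 1.3.3, DESeq2 1.38.2 and GRCh38 are named, without roles, per the submitters' processing notes. No source used here gives the annotation or strand setting. In the deposited column of KDAC4 H803A replicate 4, 7367 of 7612 single-transcript genes (96.8%) equalled the GENCODE v29 transcript length minus 248.86 bases within 0.02 bases, so this column was read as lengths (a value of another kind) and not as counts. In the other columns at most 0.0788% of genes fell at any one difference. All 85 members, and 57055 gene IDs in all, were found in GENCODE v29, whose coordinates are counted from 1.

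Expected counts were rounded to whole numbers, filtered by filterByExpr of edgeR with a minimum count of 10 and a minimum total of 15, and scaled by TMM. All 14 libraries were fitted in 1 model (edgeR 4.0.16, limma 3.58.1, R 4.3.3; quasi-likelihood F test, Benjamini-Hochberg over 17780 genes, threshold 0.05). The common dispersion was 0.179. Standard errors were taken as |log2 fold change| over √F. Cluster sums replaced the genes of each cluster in a fit of 17756 features. Ratios against a group with 1 to 3 counts carry exact 95% counting intervals, which cover counting error only.

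The members, gene lists and alternatives were chosen with earlier results of these data known. Members were named where called in at least 1 comparison, for 13 fixed cadherins and protocadherins, and for the 2 highest genes of each cluster. Of the other lists, called genes of highest mean CPM were named (at most 3 a list and comparison), with the catenins and CTCF as exceptions chosen after their values were seen. Alternatives were DESeq2 1.42.0, upper-quartile scaling, no filter, a replicate block, 2-group fits, GC and length offsets, leaving out 3 libraries that stand apart, and leaving out each library.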

Additional observations from a re-analysis of the deposited data

Results flagged for a closer look

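In groups of 4 libraries, 7 of 58 sets of values examined had a highest value of at least 1 CPM and 1 library far from the other 3 (Dixon's test at the 95% level, which chance passes in about 1 in 20 groups). In KDAC7 H709A replicate 4, CDH11 stood at 108 CPM, where the other 3 libraries had 25.9 to 37.1 CPM, and PCDHGB7 stood at 8.05 CPM, where they had 12 to 12.1 CPM.

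In KDAC4 H976Y replicate 4, which had the lowest total count and 31.5% mitochondrial ribosomal RNA, 4 values stood apart. CDH8 was at 15.2 CPM (others 6.38 to 7.6), PCDHA4 at 14 CPM (others 6.39 to 7.18), the PCDHA sum at 15.4 CPM (others 7.04 to 7.98), and PCDHGC3 at 88.8 CPM (others 137 to 143). PCDHA4 makes up most of the PCDHA sum, so these are not independent. Without this library TMP195 still had lower CDH8, PCDHA4 and PCDHA sums than KDAC4 H976Y. In KDAC4 H976Y replicate 2, PCDHGA10 was at 5.42 CPM, where the other 3 had 7.41 to 7.74 CPM.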

How the results depend on the processing

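Counts of called members are given for TMP195 against KDAC7 H709A, KDAC4 H803A and KDAC4 H976Y, then KDAC7 H709A against KDAC4 H803A and KDAC4 H976Y, and KDAC4 H803A against KDAC4 H976Y, with 6, 5, 8, 0, 3 and 6 as reported. DESeq2 gave 8, 10, 12, 1, 7 and 12, where 11.4%, 8.39%, 20%, 0.425%, 15.1% and 20.6% of all genes were called. No filter gave 4, 3, 5, 0, 5 and 6 (2.56%, 2.2%, 6.35%, 0.0408%, 4.68% and 5.65% of all genes). Upper-quartile scaling, with 7.22%, 5.9%, 17.9%, 0%, 13.3% and 16.1% of all genes called, changed no member count but lost 6 calls and gained 6: PCDHGA5, PCDHGA6 and PCDHGB3 lost theirs in 1, 2 and 3 comparisons, and CDH13 gained 3 and CDH4, PCDH1 and PCDHGB7 1 each. With only the 2 groups compared there were 3, 2, 17, 0, 4 and 4, where 4.86%, 2.15%, 58.8%, 0%, 12.8% and 10.7% of all genes were called, so that the 17 is below its background. GC and length offsets gave 6, 6, 11, 0, 5 and 5, where 7.28%, 7.71%, 22.3%, 0%, 19.3% and 22.4% of all genes were called. With the replicate block added they gave 6, 4, 6, 0, 3 and 1 (3.8%, 4.66%, 14.6%, 0%, 12.8% and 13.5% of all genes). Without the 3 libraries that stand apart there were 20, 34, 19, 27, 16 and 28, where 45.7%, 47.9%, 53.9%, 60.2%, 31.8% and 64.5% of all genes were called.

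The replicate block gave 3, 2, 4, 0, 3 and 2, where 2.55%, 3.17%, 8.75%, 0%, 7.44% and 6.92% of all genes were called. Deviations of same-numbered libraries from their group means correlated at -0.687 to 0.358. Differently numbered libraries were not compared in this way, so whether the numbers mark a shared batch was not tested. Leaving out each library gave 2 to 8, 2 to 14, 4 to 11, 0 to 8, 3 to 7 and 2 to 19; the highest count in every comparison came without KDAC4 H803A replicate 1, where 14.6%, 14.5%, 27.3%, 25.7%, 18.5% and 45.3% of all genes were called, and the lowest without TMP195 replicate 1 or KDAC4 H803A replicate 2 or 3. For the cluster sums it gave -1.44 to -0.89, -2.42 to -1.79 and -2.02 to -1.47 for PCDHB with TMP195 against KDAC7 H709A, KDAC4 H803A and KDAC4 H976Y, -1.21 to -0.60 for PCDHB in KDAC7 H709A against KDAC4 H803A, and -0.61 to -0.48 for PCDHG with TMP195 against KDAC7 H709A.

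Directions reversed in 3 cases, all without the 3 libraries: CDH11 with TMP195 against KDAC4 H803A (1.66) and KDAC7 H709A (0.51), and PCDHGB4 with TMP195 against KDAC7 H709A (2.36). The PCDHA sum kept its calls with TMP195 in all 22 alternatives (log2 -3.43 to -2.68). The PCDHB sum with TMP195 against KDAC4 H803A fell short in the 2-group fit (-2.14, adjusted p = 0.118). Against KDAC7 H709A it passed with DESeq2 (-1.21) and without the 3 libraries (-1.28), and KDAC7 H709A against KDAC4 H803A also passed there (-1.14). The PCDHG sum with TMP195 passed against KDAC7 H709A with DESeq2 (-0.55), GC and length offsets (-0.55) and without the 3 libraries (-0.54), against KDAC4 H803A with DESeq2 (-0.43), and against KDAC4 H976Y in the 2-group fit (-0.27). Upper-quartile scaling put the median LFC of all genes at 0.14 for TMP195 against KDAC4 H976Y (0.03 with TMM), and at these depths genes under 1 CPM rest on a few counts.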
